A study of Callithrix jacchus with 39 samples.

Results

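GATA6, HNF4A and PDGFRA were followed as 3 genes of the 30811 gene IDs counted by RNA-seq in Callithrix jacchus, the common marmoset, a small monkey. Each was found by its symbol, and each matched 1 gene ID: GATA6 is ENSCJAG00000020543, HNF4A is ENSCJAG00000017746 and PDGFRA is ENSCJAG00000018415. All 3 passed the filter on low counts in both the embryo and the ESC fits.

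The primitive endoderm, or hypoblast, is the layer that forms next to the epiblast in the inner cell mass (ICM) of the blastocyst and later lines the yolk sac. GATA6 is a zinc finger transcription factor that directs ICM cells to the primitive endoderm and opposes NANOG, which directs them to the epiblast. PDGFRA is the receptor tyrosine kinase for PDGF-A and related ligands, a surface marker of the primitive endoderm that also marks mesenchyme. HNF4A is a nuclear receptor of visceral endoderm, liver and gut, where it drives genes of lipoprotein synthesis.

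The libraries came from 7 embryo stages and 6 groups of embryonic stem cells (ESCs), with 3 libraries in each of the 13 groups. The embryo stages were the morula, 5 stages of ICM (early, then one labelled only blastocyst, then expanded, hatching and hatched) and the epiblast of postimplantation embryos. Primed ESCs, the state like the postimplantation epiblast, formed 4 groups and naive ESCs, the state like the preimplantation epiblast, formed 2: primed DSY127 and No.40, primed cells with "Tg" in the title from DSY-c2 and N40, naive DSY-c2 cells titled TgON, and naive N40 cells titled TgOFF. The labels do not say what Tg, TgON or TgOFF stand for, nor how No.40 and N40 are related. Among the naive cells each line has 1 Tg label, so the line and that label cannot be told apart. Whether the 3 libraries of a group are separate embryos or cultures is not labelled, so a p-value measures only their spread, which could be technical.

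Total counts were 38.8 to 78.7 M per ESC library and 45.3 to 59.0 M per embryo library (M, 1e6). Levels are CPM, counts per 1e6 counts, on 1 TMM scale over the 39 libraries. They are compared within a gene across libraries and not between genes, since no gene lengths were used. Differences are log2 fold changes ± SE from edgeR's quasi-likelihood test, with p adjusted over all genes tested by Benjamini-Hochberg, and a gene was called at an adjusted p under 0.05. Hatched ICM replicate 1 stood apart from its group in HNF4A target genes. The 12 matched ones summed to 3249 CPM there, against 399 and 162 in replicates 2 and 3. The 8 matched liver and gut genes did not differ so, at 5.62 to 9.39 CPM in the hatched ICM. In some other lists too, 1 hatched ICM library lay far above its group. The sums were 1549 CPM against 611 and 299 for trophectoderm genes and 1336 against 256 and 199 for GATA and HNF genes. For primitive endoderm matrix genes they were 13438 CPM against 5587 and 3878. DSY-c2 primed replicate 4 stood apart in 5 genes of the primitive streak and definitive endoderm, at a summed 2244 CPM against 188 and 155. The pluripotency gene POU5F1 was at 973 to 1542 CPM in the means of the N40 and DSY-c2 groups, and KLF17, a marker of naive cells, had a mean of 0.494 CPM in primed and 101 CPM in naive N40 cells, and of 23.2 and 75.1 CPM in DSY-c2.

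**Figure D1:**
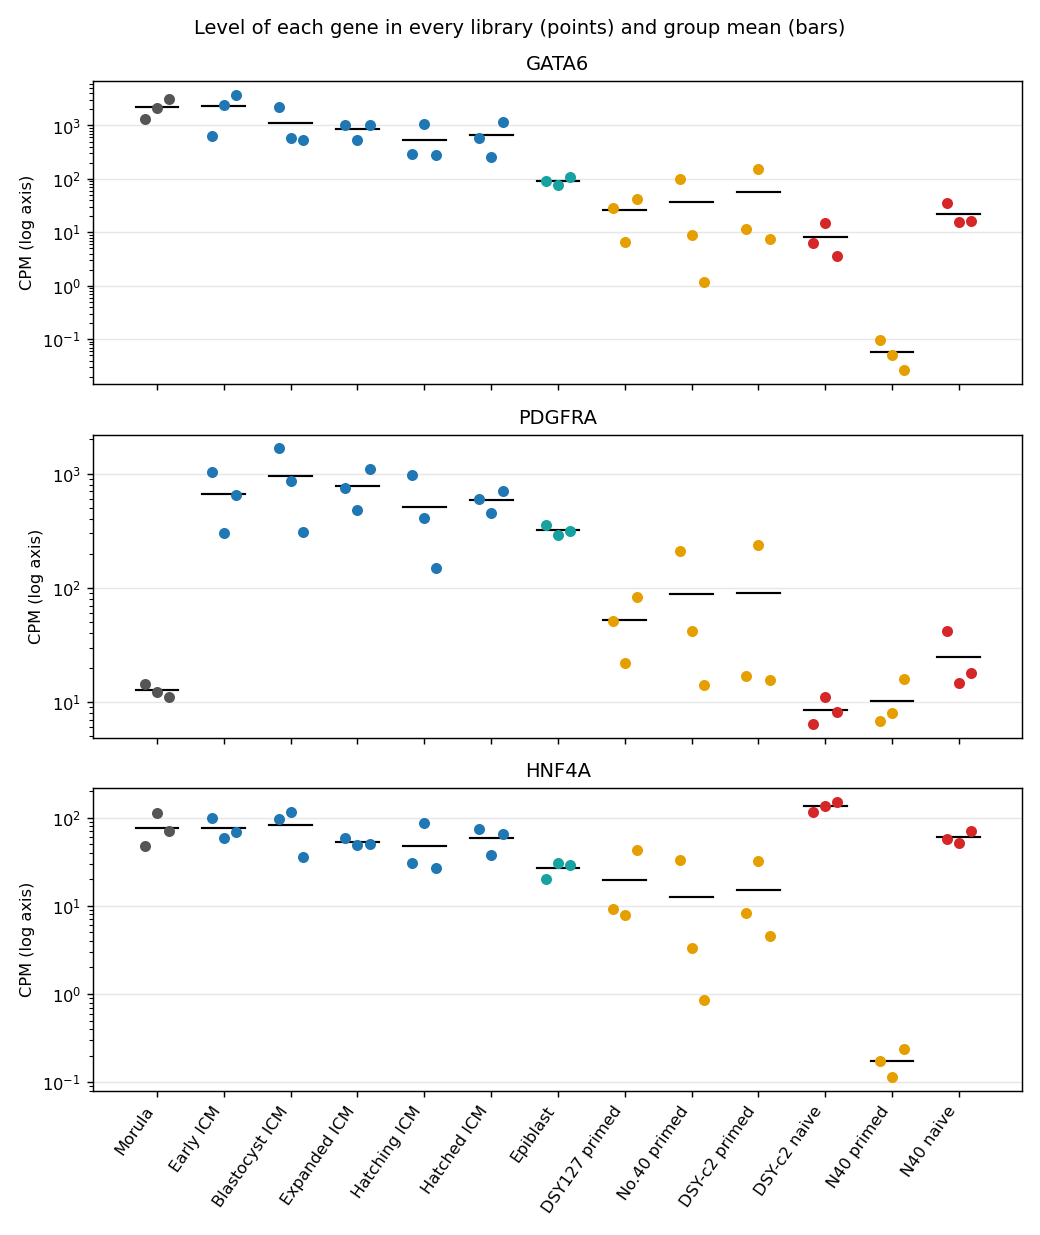
CPM of GATA6, PDGFRA and HNF4A in each of 39 libraries (points, log axis), by group, with the group mean as a bar. GATA6 had its highest means in early ICM and morula, PDGFRA was low in morula and high in all ICM stages, and HNF4A in the 6 naive libraries lay within or above the range of the ICM libraries.

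GATA6 was high at the morula stage and in the early ICM, whose libraries overlapped. Its morula libraries held 1297, 2163 and 3165 CPM, and the early ICM libraries 624, 2457 and 3743 CPM. The levels were then 2183, 594 and 538 CPM in the blastocyst ICM, 1035, 531 and 998 CPM in the expanded ICM, 295, 1044 and 277 CPM in the hatching ICM, and 574, 260 and 1145 CPM in the hatched ICM. The ranges of all neighbouring stages up to here overlapped. The epiblast libraries, at 92.8, 75.6 and 109 CPM, lay below every morula and ICM library.

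PDGFRA behaved differently at the first step. It was at 14.5, 12.3 and 11.1 CPM in the morula and at 1033, 301 and 652 CPM in the early ICM, with no overlap. It stayed at 1673, 861 and 311 CPM in the blastocyst ICM, 756, 477 and 1104 CPM in the expanded ICM, 977, 411 and 150 CPM in the hatching ICM and 597, 454 and 702 CPM in the hatched ICM. The epiblast libraries, at 353, 293 and 318 CPM, fell inside the range of the 15 ICM libraries (150 to 1673 CPM), although they lay below all 3 hatched ICM libraries.

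HNF4A varied least over the ICM, by 4.29-fold across 15 libraries against 14.4-fold for GATA6 and 11.2-fold for PDGFRA. It was at 48.1, 113 and 69.9 CPM in the morula, 98.1, 58.9 and 69.3 CPM in the early ICM and 96.6, 116 and 35.8 CPM in the blastocyst ICM. The expanded ICM held 58.6, 49.4 and 50.8 CPM, the hatching ICM 30.6, 86.4 and 27 CPM, and the hatched ICM 73.8, 37.6 and 64.6 CPM. Morula and ICM libraries thus covered one shared range, while the epiblast, at 20.2, 30.3 and 28.9 CPM, lay at its lower end and overlapped the hatching ICM.

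From morula to early ICM, PDGFRA rose 52.3-fold in its mean, from 12.7 ± 1.71 to 662 ± 366 CPM (SD, n = 3 each), a log2 fold change of 5.70 ± 0.72 (adjusted p = 0.000276). The same step gave 0.03 ± 0.68 for GATA6 and −0.04 ± 0.47 for HNF4A, both with an adjusted p of 1. Of all 16929 embryo genes tested, 6.16% were called at this step, 3.89% higher and 2.27% lower. PDGFRA was the 1 of the 3 genes called. Its call held when each of the 6 libraries was left out, with log2 values of 5.23 to 6.04. In bulk libraries more cells of a type and more RNA per cell cannot be told apart.

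Basement membrane genes were also called at this step. Of the 13 tested primitive endoderm membrane and matrix genes, 4 rose and 0 fell, against a median of 0.76 for the list and 0 over all genes. They were the collagen IV chains COL4A1 (6.69 ± 1.004, adjusted p = 0.000877) and COL4A2 (6.59 ± 0.97, adjusted p = 0.000761), and the nidogens NID1 (2.09 ± 0.55) and NID2 (4.56 ± 0.79). COL4A1 went from 1.13 ± 1.16 to 118 ± 87.7 CPM. None of the 5 tested transcription factors of the primitive endoderm list was called: GATA4, a zinc finger factor that acts with GATA6 in endoderm, was at 10.1 ± 3.6996 CPM in the morula and 5.54 ± 3.42 CPM in the early ICM. The ligand gene PDGFA was at 167 ± 42.3 CPM in the morula, 51.1 ± 39.4 CPM in the early ICM and 15.04 ± 10.7 CPM in the blastocyst ICM, and was highest at the stage where PDGFRA was lowest. Its fall at the first step, −1.72 ± 0.63, did not pass the test (adjusted p = 0.112).

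Over the 5 ICM stages no gene of the 3 differed by the F test (adjusted p = 0.287 for GATA6, 0.740 for HNF4A and 0.867 for PDGFRA), where 0.295% of all genes were called. The mean of the hatching and hatched ICM was set against the mean of the early and blastocyst ICM as 1 value for the timing. GATA6 was lower in the later stages by a log2 fold change of −1.43 ± 0.49, with an unadjusted p of 0.00935 and an adjusted p of 0.123. The values were −0.59 ± 0.33 for HNF4A (adjusted p = 0.363) and −0.54 ± 0.42 for PDGFRA (adjusted p = 0.536). Of all genes, 2.04% were called in this comparison, 1.26% higher and 0.774% lower. DESeq2 called GATA6 (−1.37, adjusted p = 0.0372), so this call rests on the choice of test. The 4 steps between successive ICM stages gave no call for any of the 3 genes. From early to blastocyst ICM 0.0295% of all genes were called, and at each of the 3 later steps 0% by edgeR, with 923, 831 and 1134 genes at an unadjusted p under 0.05 and 326, 255 and 225 called by DESeq2.

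A few primitive endoderm genes were called higher in the later ICM. GATA4 rose by 1.46 ± 0.36 (adjusted p = 0.0447), from 5.54 ± 3.42 CPM in the early ICM to 50.4 ± 2.72 CPM in the hatched ICM, and was the 1 of 5 tested factors called. FOXA2, a forkhead factor of endoderm, was at 0.0912 ± 0.0439 CPM in the early ICM and 124 ± 49.2 CPM in the hatched ICM, with a difference of 5.75 ± 1.57 that missed the threshold (adjusted p = 0.0643). Among 13 matrix and membrane genes 4 rose and 0 fell: FST, the activin antagonist follistatin (7.73 ± 1.21), FN1, fibronectin (6.72 ± 1.56), CUBN, the endocytic receptor cubilin (3.32 ± 0.82), and COL4A1 (2.39 ± 0.58). Among 10 HNF4A target genes 2 rose and 0 fell, the apolipoprotein genes APOA1 (6.92 ± 1.51) and APOB (5.01 ± 1.24). The median of the list was 1.35 for matrix genes and 1.92 for HNF4A targets, against 0.06 over all genes. Some HNF4A targets behind that median had an SE of 0 or from 1641 to 19356, so their fold changes were not usable estimates. LRP2 (−0.92 ± 0.41), DAB2 (−0.62 ± 0.39) and NID2 (−0.24 ± 0.48) lay below 0 and were not called. Without hatched ICM replicate 1 the counts were 0 factors, 1 matrix gene (FST, 7.58) and 1 HNF4A target (APOB, 5.30). GATA4 was then at 1.47 (adjusted p = 0.0819), CUBN at 3.52 (adjusted p = 0.0572), FN1 at 6.63 (adjusted p = 0.0590), COL4A1 at 1.97 (adjusted p = 0.0939) and APOA1 at 5.41 (adjusted p = 0.0819).

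**Figure D2:**
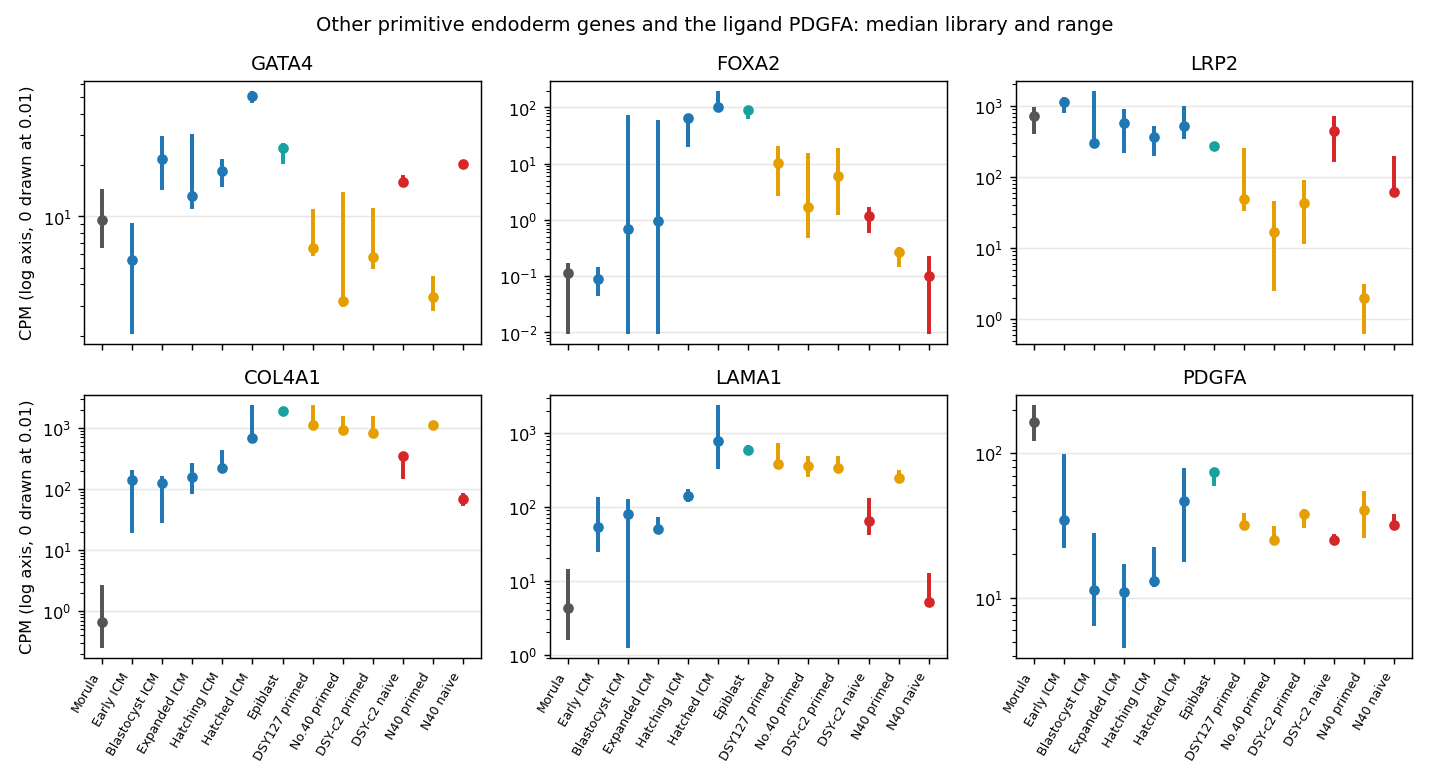
CPM (log axis) of 6 other genes by group: the point is the median library and the line spans the lowest to the highest of 3 libraries, with 0 drawn at 0.01. GATA4 was highest in the hatched ICM, at 47.5 to 52.9 CPM, and COL4A1 rose from a mean of 1.13 CPM in the morula to 1900 CPM in the epiblast.

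In the postimplantation epiblast GATA6 and HNF4A were lower than in the mean ICM. GATA6 fell by 3.38 ± 0.68 on the log2 scale (adjusted p = 0.000731) and HNF4A fell by 1.26 ± 0.40 (adjusted p = 0.0171), while PDGFRA was at −1.12 ± 0.50 (adjusted p = 0.0775). Called genes made up 44.8% of all genes here, 26.1% higher and 18.7% lower, so 2 of 3 genes called lower stands beside a large background. The median of all genes was 0.20 with TMM and 0.44 with DESeq2's size factors. The HNF4A call was lost without epiblast replicate 1 (−1.03, adjusted p = 0.113), 2 (−1.29, adjusted p = 0.0560) or 3 (−1.26, adjusted p = 0.0624), each of which leaves 2 epiblast libraries. PDGFRA was called without hatching ICM replicate 3 (−1.10, adjusted p = 0.0477). Against the hatched ICM alone, where 19.9% of genes were called, 7.22% higher and 12.7% lower, GATA6 fell by 2.84 ± 0.73 (adjusted p = 0.0108). HNF4A was at −1.17 ± 0.48 (adjusted p = 0.0936) and PDGFRA at −0.88 ± 0.59 (adjusted p = 0.315), both called when only these 6 libraries were fitted (−1.22, adjusted p = 0.0361, and −0.94, adjusted p = 0.0195). That GATA6 call was lost without hatched ICM replicate 3 (−2.11, adjusted p = 0.0743), epiblast replicate 1 (−2.78, adjusted p = 0.0515) or epiblast replicate 2 (−2.65, adjusted p = 0.0611).

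Genes of lists made for other cell types were also called in the epiblast, where 26.1% of all genes were called higher and 18.7% lower. All 7 tested genes of the mesenchyme list rose, and the 8 matched genes summed to 4065 to 4293 CPM against 1.36 to 1598 CPM over the ICM libraries. In primed ESCs the same genes summed to 1230 to 3024 CPM in DSY127 and 1282 to 3030 CPM in No.40. They summed to 470 to 1754 CPM in DSY-c2 primed and 630 to 879 CPM in N40 primed cells. Of the 10 tested HNF4A target genes 7 rose and 0 fell, with APOB at 533 ± 27.1 CPM and a summed level of 9752 to 10455 CPM, although HNF4A itself was lower. ALB, the liver's albumin gene, was at 0 in all epiblast libraries. Other genes of the liver and gut list were called higher: CPS1 (12.84 ± 1.22), CYP2E1 (6.70 ± 1.51) and FABP2 (4.46 ± 1.45). The rest of that list was not called or not tested. Its 8 matched genes summed to 69.2 to 92.0 CPM in the epiblast and 5.62 to 9.39 CPM in the hatched ICM. Of the 4 PDGF ligand genes 3 rose and 0 fell, PDGFA by 1.59 ± 0.42, PDGFB by 5.63 ± 1.14 and PDGFC by 7.15 ± 1.61. So few ligand genes do not set that list apart from all genes. PDGFRA is a mesenchyme gene as well as a primitive endoderm gene. Whether the epiblast libraries held mesenchyme cells, and any part of them in the PDGFRA level, was not tested.

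Within a stage, the 3 libraries of the ICM groups differed by up to 6.51-fold. The widest were PDGFRA in the hatching ICM (SD of log2 CPM 1.35, 150 to 977 CPM) and GATA6 in the early ICM (SD 1.35, 624 to 3743 CPM, 5.99-fold). The narrowest was HNF4A in the expanded ICM (SD 0.13, 1.19-fold). Among all tested embryo genes these SDs ranked from the 10.46th to the 75.8th percentile. The ranking was not matched on level, so it does not show whether such a spread is usual for genes at these levels. In the epiblast the SDs were 0.26 for GATA6, 0.14 for PDGFRA and 0.32 for HNF4A, against a median gene of 0.31.

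Over the 15 ICM libraries, 6 pairs were compared by correlation of log2 CPM with permutation tests, adjusted over the 6 pairs, and none passed. GATA6 and HNF4A gave Pearson's r of 0.55 (permutation p = 0.0361, adjusted 0.108) and Spearman's rho of 0.59 (permutation p = 0.0228, adjusted 0.137). PDGFRA and HNF4A gave an r of 0.55 (permutation p = 0.0347, adjusted 0.108) and a rho of 0.44 (permutation p = 0.106, adjusted 0.318). The 2 libraries farthest from the median of the first-named gene were then left out, and they differed between these pairs. Without them the first was 0.67 and the second 0.23. Leaving out the ends of 1 gene narrows its range, so this does not show that the second rested on those libraries. GATA6 and PDGFRA gave an r of 0.28 (permutation p = 0.306, adjusted 0.611) and a rho of 0.24 (permutation p = 0.397, adjusted 0.596), with an r of 0.57 without the 2 farthest libraries. With NANOG the r was −0.23 for GATA6, 0.14 for PDGFRA and −0.05 for HNF4A (permutation p = 0.415, 0.599 and 0.863, adjusted 0.622, 0.718 and 0.863), with rho of −0.35, 0.16 and −0.01 (permutation p = 0.207, 0.560 and 0.985, adjusted 0.414, 0.672 and 0.985). After stage means were subtracted, the r was 0.22 for GATA6 with PDGFRA, 0.43 for GATA6 with HNF4A and 0.51 for PDGFRA with HNF4A. A bulk ICM library mixes epiblast and primitive endoderm cells, and these libraries share depth and stage.

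**Figure D3:**
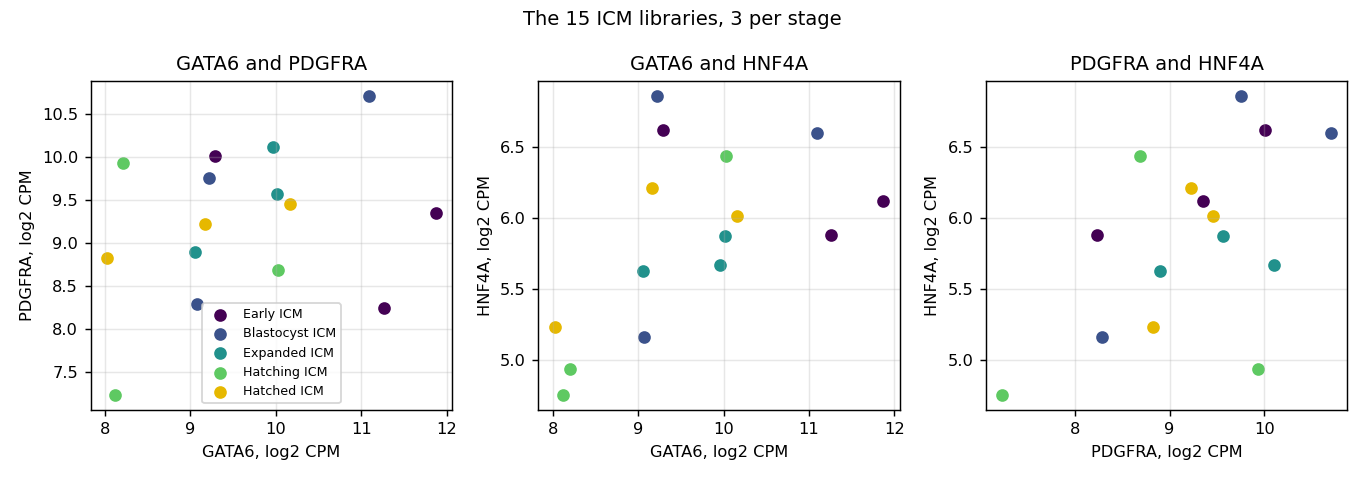
Log2 CPM of each pair of the 3 genes in the 15 ICM libraries, coloured by stage. Libraries of a stage are spread over the plots, and the pairs have an r of 0.28, 0.55 and 0.55 from left to right.

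In primed DSY127, No.40 and DSY-c2 cells the 3 genes differed between libraries of a group by far more than most genes did. GATA6 was at 29.2, 6.62 and 41.8 CPM in DSY127, at 99.5, 8.77 and 1.16 CPM in No.40, at 11.4, 150 and 7.46 CPM in DSY-c2 (replicates 2, 4 and 5), and at 0.0984, 0.0505 and 0.0261 CPM in N40. PDGFRA was at 51.5, 22.0 and 82.6 CPM in DSY127, at 209, 41.6 and 14.1 CPM in No.40, at 16.9, 240 and 15.6 CPM in DSY-c2, and at 6.77, 8.09 and 15.9 CPM in N40. HNF4A was at 9.25, 7.80 and 42.5 CPM in DSY127, at 33.2, 3.30 and 0.850 CPM in No.40, at 8.30, 32.04 and 4.59 CPM in DSY-c2, and at 0.172, 0.114 and 0.235 CPM in N40. The N40 primed libraries held only 8, 4 and 2 counts of GATA6 and 14, 9 and 18 of HNF4A, which lay below every other library of the series for both genes.

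In DSY127, No.40 and DSY-c2 the same library was the highest for all 3 genes: DSY127 replicate 3, No.40 replicate 1 and DSY-c2 replicate 4. The SD of log2 CPM in these 3 groups was 0.97 to 3.20 and ranked from the 96.4th to the 99.9th percentile of the 17957 tested ESC genes. The largest was GATA6 in No.40 (SD 3.20, 86.1-fold from lowest to highest). In N40 primed cells the ranks were from the 72.7th to the 84.1st percentile. As for the embryo genes, this ranking was not matched on level. The 13 matched primitive endoderm matrix genes summed to 12203 CPM in DSY127 replicate 3 against 6660 and 4961 CPM in its group, to 13833 CPM in No.40 replicate 1 against 6015 and 3282, and to 13510 CPM in DSY-c2 replicate 4 against 4440 and 3521. The 5 matched primitive endoderm factors did likewise, at 81.4 against 42.1 and 28.8 CPM, 80.1 against 29.7 and 24.6 CPM, and 83.2 against 31.5 and 19.4 CPM. The 5 streak and definitive endoderm genes were high in 2 of these libraries, at 1168 CPM in No.40 replicate 1 against 55.2 and 29.1, and 2244 CPM in DSY-c2 replicate 4 against 188 and 155. In DSY127 replicate 3 they were at 154 CPM, between 370 and 75.4 CPM. Whether streak or endoderm cells were present, and any part of them in the levels of the 3 genes, was not tested.

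**Figure D4:**
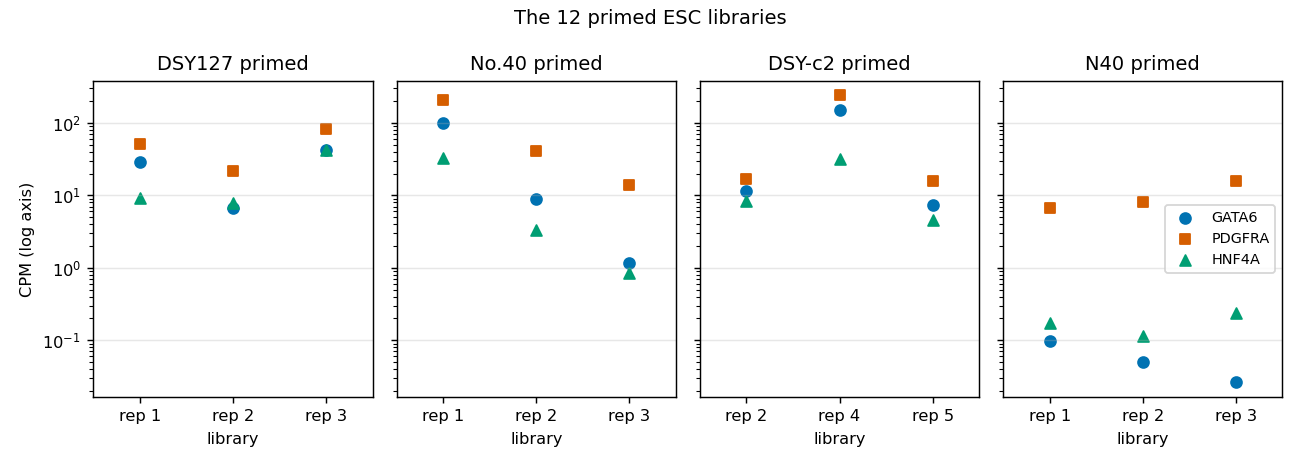
CPM (log axis) of the 3 genes in the 12 primed libraries, in 1 panel per group. In 3 panels 1 library is the highest for all 3 genes, and in N40 GATA6 and HNF4A lie below all other primed libraries.

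The 4 primed groups differed in GATA6 (F test, adjusted p = 0.0132) and HNF4A (adjusted p = 0.0111) and not by this test in PDGFRA (adjusted p = 0.128), where 38.1% of all genes were called. The GATA6 call was lost without N40 primed replicate 1, 2 or 3 (adjusted p = 0.0522, 0.0641 and 0.0648), and the HNF4A call without N40 primed replicate 2 or 3 (adjusted p = 0.0587 and 0.0507). Without DSY-c2 primed replicate 4 PDGFRA was called (adjusted p = 0.0281).

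HNF4A was the gene of the 3 that rose in naive cells of both lines. Naive N40 libraries held 56.8, 51.5 and 70.6 CPM and naive DSY-c2 libraries 115, 134 and 151 CPM. All 6 lay above the highest of the 12 primed libraries, DSY127 replicate 3 at 42.5 CPM. Naive against primed, HNF4A rose by 8.56 ± 1.496 in N40 (adjusted p = 0.00019), from 0.174 ± 0.0608 to 59.6 ± 9.85 CPM (SD, n = 3 each), and by 3.25 ± 1.07 in DSY-c2 (adjusted p = 0.0180), from 14.98 ± 14.9 to 134 ± 17.8 CPM. The DSY-c2 call was lost without DSY-c2 primed replicate 2 (2.94, adjusted p = 0.0696) or 5 (2.80, adjusted p = 0.0653), and was 4.46 (adjusted p = 0.00845) without replicate 4. Of all ESC genes 61% were called in N40, 32.3% higher and 28.7% lower, and 58.8% in DSY-c2, 29.6% higher and 29.3% lower.

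GATA6 rose in N40 and not in DSY-c2. Naive N40 libraries held 35.5, 15.5 and 16.1 CPM, 383-fold above N40 primed cells in the mean, a log2 fold change of 8.67 ± 2.06 (adjusted p = 0.00219). Naive DSY-c2 libraries held 6.31, 14.98 and 3.54 CPM and overlapped the primed ones, with −2.68 ± 1.36 (adjusted p = 0.106). The difference between the 2 lines was 11.35 ± 2.48 (adjusted p = 0.00822), in a test that called 15.1% of all genes. Without DSY-c2 primed replicate 4 the DSY-c2 value was −0.10 (adjusted p = 0.954) and the difference between the lines 8.67 (adjusted p = 0.0154). The N40 primed libraries, near 0, set the low end of this difference.

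PDGFRA was not called higher in naive cells of either line. Naive N40 libraries held 42.1, 14.8 and 17.8 CPM and overlapped the N40 primed ones, with 1.43 ± 1.07 (adjusted p = 0.263) and 0.72 (adjusted p = 0.630) without naive replicate 1. It was called (1.32, adjusted p = 0.0284) when only these 6 libraries were fitted. Naive DSY-c2 libraries held 6.44, 10.98 and 8.21 CPM, below all 3 DSY-c2 primed libraries, and fell by 3.32 ± 1.14 (adjusted p = 0.0221). That fall was −0.84 (adjusted p = 0.438) without DSY-c2 primed replicate 4, and the call was also lost without naive replicate 1, 2 or 3 (adjusted p = 0.0693, 0.0512 and 0.0646). The difference between the lines was 4.75 ± 1.55 for PDGFRA (adjusted p = 0.0547) and 5.31 ± 1.72 for HNF4A (adjusted p = 0.0530), and neither was called. Without DSY-c2 primed replicate 4 they were 2.17 (adjusted p = 0.248) and 4.002 (adjusted p = 0.132). PDGFRA was called without DSY-c2 primed replicate 2 (5.16, adjusted p = 0.0448) or 5 (5.16, adjusted p = 0.0386), and HNF4A without replicate 5 (5.66, adjusted p = 0.0476).

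The size of the GATA6 difference in N40 depended on which primed cells and libraries it was measured against. These comparisons were added after the low N40 primed levels had been seen, and they share the naive libraries. Against No.40 primed cells, naive N40 cells gave −0.69 ± 1.28 for GATA6 (adjusted p = 0.654), 2.28 ± 1.04 for HNF4A (adjusted p = 0.0677) and −1.80 ± 1.07 for PDGFRA (adjusted p = 0.153), where 65.6% of genes were called. Without No.40 primed replicate 1, the library with the highest levels of its group, they were 2.203 for GATA6 (adjusted p = 0.153), 4.91 for HNF4A (adjusted p = 0.000936) and −0.13 for PDGFRA (adjusted p = 0.919), so the sign for GATA6 turned with that library. Against the mean of the 4 primed groups, with 68.7% of genes called, they gave 1.64 ± 1.03 for GATA6 (adjusted p = 0.175), 3.63 ± 0.71 for HNF4A (adjusted p = 0.000411) and −0.80 ± 0.87 for PDGFRA (adjusted p = 0.432). GATA6 was called there without DSY-c2 primed replicate 4 (2.26, adjusted p = 0.0322) or No.40 primed replicate 1 (2.33, adjusted p = 0.0236), while PDGFRA was −0.20 and −0.41 (adjusted p = 0.799 and 0.644). Naive DSY-c2 cells against DSY127 (62.9% of genes called) gave 2.79 ± 1.05 for HNF4A (adjusted p = 0.0324), −1.61 ± 1.32 for GATA6 (adjusted p = 0.303) and −2.57 ± 1.11 for PDGFRA (adjusted p = 0.0570). The HNF4A call was lost without naive replicate 2 or 3 or DSY127 replicate 1 or 2 (2.43 to 2.81, adjusted p = 0.0555 to 0.102). Against the mean of the 4 primed groups (68% of genes called) they gave 4.80 ± 0.71 for HNF4A (adjusted p = 3.17e-05), 0.21 ± 1.08 for GATA6 (adjusted p = 0.876) and −2.33 ± 0.98 for PDGFRA (adjusted p = 0.0476). That PDGFRA value was −1.72 (adjusted p = 0.0447) without DSY-c2 primed replicate 4, and its call held in 7 of 15 fits with 1 library left out, with values of −2.57 to −1.72. With all libraries HNF4A was above 0 in all 6 contrasts and called in 5, while GATA6 was called in 1.

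**Figure D5:**
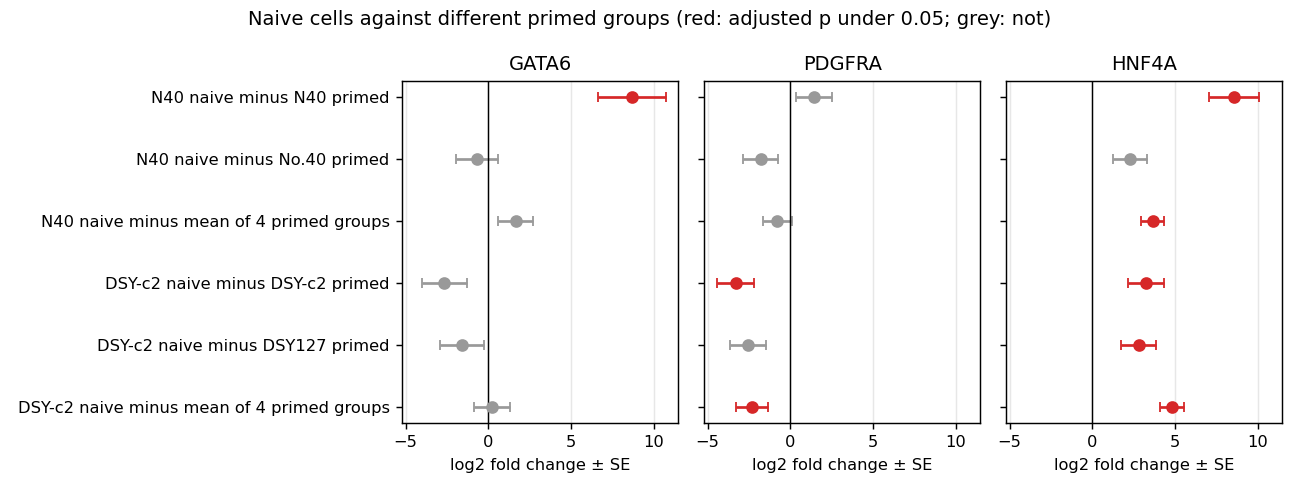
Log2 fold change ± SE of naive cells against 3 choices of primed cells in each line, with adjusted p under 0.05 in red. HNF4A lies to the right of 0 in all 6 contrasts, from 2.28 to 8.56, while GATA6, with all libraries in the fit, is called only against N40 primed cells.

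Of the other primitive endoderm genes, GATA4 and LRP2 were called higher in naive cells of both lines, as HNF4A was, and others were called lower or not at all. In N40, 1 of 5 tested factors rose, GATA4 by 2.67 ± 0.49 (adjusted p = 0.000185), from 3.54 ± 0.748 to 20.4 ± 0.245 CPM, and 1 fell, OTX2 by 2.52 ± 0.51, a homeobox factor of epiblast and visceral endoderm. FOXA2 was at −1.09 ± 1.42 and HHEX, a homeobox factor of anterior endoderm, at 0.08 ± 0.89, both uncalled. In DSY-c2, GATA4 rose by 1.27 ± 0.46, from 7.27 ± 3.22 to 16.3 ± 0.635 CPM, and OTX2 and HHEX fell (−3.69 ± 0.55 and −3.08 ± 0.94). Without DSY-c2 primed replicate 4 the factors had 1 rise and 1 fall. With 5 genes these counts are read beside the 32.3% higher and 28.7% lower of all genes in N40 and the 29.6% and 29.3% in DSY-c2, as are those of the lists that follow.

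Of the 13 matrix and membrane genes 1 rose and 4 fell in N40, and 3 rose and 6 fell in DSY-c2 (3 and 5 without primed replicate 4), near the shares of all genes for most of these counts. LRP2, the endocytic receptor megalin, rose in both, by 5.91 ± 1.23 in N40 and 3.30 ± 1.06 in DSY-c2. Basement membrane genes were mixed. COL4A1 fell by 3.92 ± 0.40 in N40 and 1.70 ± 0.37 in DSY-c2, and the laminin chain LAMA1 by 4.99 ± 0.48 and 2.19 ± 0.42, with COL4A2 and NID1 also lower in both. The laminin chain LAMC1 rose in DSY-c2 (1.13 ± 0.23) and was at 0.41 ± 0.22 in N40, and LAMB1 and NID2 were not called in either line. The medians of this list were −0.60 and −0.35, against 0.09 and 0.03 over all genes.

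Of the 9 tested HNF4A target genes, 1 rose and 3 fell in N40, and 1 rose and 4 fell in DSY-c2, with or without primed replicate 4. The falls in N40 are near the 28.7% of all genes called lower. The one that rose was APOM, an apolipoprotein, by 1.33 ± 0.26 in N40 and 1.19 ± 0.26 in DSY-c2, to levels of 2.72 ± 0.519 and 2.39 ± 0.604 CPM; its DSY-c2 value lay outside the naming rule and was chosen after it was seen. RBP4, the retinol binding protein, fell by 4.37 ± 0.41 and 4.71 ± 0.43, and TF, transferrin, by 2.52 ± 0.14 and 2.35 ± 0.14. Summed over the 12 matched targets, naive libraries held 113 to 149 CPM in N40 and 93.2 to 146 CPM in DSY-c2, against 662 to 832 and 513 to 539 CPM in their primed cells. Of 4 tested genes of the GATA and HNF families 3 rose in both lines: GATA4, GATA2 (3.34 ± 0.98 and 3.64 ± 0.96) and HNF4G, the paralog of HNF4A (1.54 ± 0.30 and 2.04 ± 0.31), which reached 7.20 ± 1.55 and 9.68 ± 2.46 CPM.

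Of the 4 PDGF ligand genes 0 rose and 2 fell in N40, against 32.3% and 28.7% of all genes, PDGFC (−1.15 ± 0.45) and PDGFD (−1.50 ± 0.26), and in DSY-c2 0 rose and 3 fell, these and PDGFB, with or without primed replicate 4. So few genes do not set the list apart from all genes. PDGFA, the ligand gene at the highest level, was at 33.5 ± 2.97 CPM in naive and 40.1 ± 13.01 CPM in primed N40 cells (−0.12 ± 0.19, adjusted p = 0.598). FGF signalling, through ERK, favours primitive endoderm in the ICM of the mouse. Of 8 tested genes of that pathway 3 rose and 2 fell in N40, and 1 rose and 2 fell in DSY-c2 (1 and 1 without primed replicate 4). The receptor gene FGFR1 fell in both (−1.23 ± 0.17 and −1.24 ± 0.17) and FGFR3 rose in both (0.74 ± 0.15 and 0.79 ± 0.15).

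The levels in naive cells can be set beside the embryo on the joint scale, as a description with no test. Mean HNF4A was 59.6 CPM in N40 naive cells and 58.7 CPM in the hatched ICM, a ratio of 1.02 with overlapping libraries, and 134 CPM in DSY-c2 naive cells, 2.28-fold above the hatched ICM. GATA6 was 29.5-fold lower than the hatched ICM in N40 naive cells and 79.7-fold lower in DSY-c2 naive cells, and also 4.14-fold and 11.2-fold below the epiblast. PDGFRA was 23.5-fold and 68.4-fold below the hatched ICM and 12.9-fold and 37.6-fold below the epiblast. A bulk ICM library mixes epiblast and primitive endoderm cells, so its level is not that of a single cell type. With that limit, mean HNF4A in N40 naive cells was near that of the bulk hatched ICM, and in DSY-c2 naive cells above it. GATA6 and PDGFRA stood below the hatched ICM in both.

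Ranked by mean level over the 13 groups, GATA6 ran from 2275 CPM in the early ICM to 0.0584 CPM in N40 primed cells. Only 3 of 12 neighbours in that order did not overlap: hatching ICM and epiblast, N40 naive and DSY-c2 naive, and DSY-c2 naive and N40 primed. PDGFRA ran from 948 CPM in the blastocyst ICM to 8.55 CPM in DSY-c2 naive cells, with gaps after the epiblast and after N40 naive cells, 2 of 12. HNF4A ran from 134 CPM in DSY-c2 naive cells to 0.174 CPM in N40 primed cells, with a gap only above N40 primed, 1 of 12.

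The genes most like each of the 3 were ranked by Pearson's r of mean log2 CPM over the 13 groups, among 9684 genes with a symbol and a highest group mean of at least 5 CPM. For GATA6 they were ANAPC4 (0.94), PCGF5, PXDC1, CEPT1 and RAP1B. PDGFRA was most like MED12 (0.95), SLC2A4RG, SLC35F5, SOD3 and NRG1. For HNF4A the first was LRP2 (0.93), a gene of the primitive endoderm list, before TRPM1, WNT5B, ISM2 and SRGAP2. The r between members was 0.78 for GATA6 and HNF4A, 0.68 for GATA6 and PDGFRA and 0.38 for PDGFRA and HNF4A, so none was among the 5 closest of another. Over the 15 ICM libraries, among 8110 genes, the closest were PNLDC1 (0.87), TPX2, SLC23A2, TTC7A and ANAPC2 for GATA6, DAAM1 (0.89), SMC3, SEL1L, RPS6KA5 and PXK for PDGFRA, and DNAJC11 (0.86), PLEKHA7, HDGF and SLC25A25 for HNF4A. Of other genes set beside GATA6 over these libraries, GATA4 had an r of −0.65, APOA1 −0.53, CUBN −0.49 and POU5F1 0.05. None of these was tested, and stage means were not subtracted. Late against early ICM, GATA6 was at −1.43 and GATA4 at 1.46, so their r cannot be told apart from a trend over stages.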

How the data were processed

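The authors deposited raw counts per gene, 2 run columns for each of 39 libraries. The submitters' processing notes name Trim Galore 0.4.0, STAR 2.5.3a and featureCounts 1.5.2. Libraries were made from poly(A)+ RNA with a stranded kit, per the labels' protocols. Build, annotation and strand setting: not given in the sources used here, so reads from antisense genes cannot be told apart from those of the 3 genes. The 78 columns were summed per library, since the chi-square per gene was 1.91 to 2.00 between the run columns of a library and at least 28.1 between libraries of a group. Another 6 columns belonged to no sample and were not used. Even counts made up 64.1% of counts from 1 to 49 and 50.7% of those of 500 or more, so mates may have been counted separately, and tests were repeated on halved counts. Symbols came from the reference gene table and covered 12660 IDs (41.1%).

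ESC and embryo libraries were fitted apart with edgeR 4.0.16 (quasi-likelihood, robust, filterByExpr, TMM) in R 4.3.3, over 17957 and 16929 genes, with Benjamini-Hochberg adjustment over all genes. The fits were tested on simulated data. Log2 CPM used a prior count of 2, and correlations used 100000 resamples. DESeq2 1.42.0, other filters, other normalization, fits of other sets of libraries and leaving out each library were the alternatives. Figures used matplotlib 3.10.9. Same-numbered libraries did not deviate together, so replicate numbers were not used as pairs.

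The 3 genes and the 12 gene lists were chosen with earlier results of these data known. GATA6, HNF4A and PDGFRA were named in every comparison. Members of the lists of primitive endoderm factors, primitive endoderm matrix genes, PDGF and FGF-ERK were open to naming, as were up to 4 called genes of each other list and the 5 genes most like each member. List genes with no matched symbol, SOX17, SOX7 and FGF4 among them, were not analysed here. Values of some genes that this naming rule covers are not reported here.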

Additional observations from a re-analysis of the deposited data

Results flagged for a closer look

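The GATA6 effect of naive cells differed between the 2 lines. It was 8.67 in N40 and −2.68 in DSY-c2 on the log2 scale, and the difference of 11.35 ± 2.48 was tested itself (edgeR, adjusted p = 0.00822). The 3 N40 primed libraries held 14 counts of GATA6 in all, and naive N40 cells did not differ by the test from No.40 primed cells (−0.69, adjusted p = 0.654, and 2.203, adjusted p = 0.153, without No.40 primed replicate 1).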

How the results depend on the processing

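Leaving aside stage steps and added naive contrasts, where GATA6 could change sign, 422 alternative values of the 3 genes counted as unchanged. Another 14 newly passed, 15 no longer passed and 2, both correlations with NANOG, changed sign. Unchanged meant the same direction and threshold side. F tests have no direction and were judged by threshold side alone. Correlations with stage means subtracted had no p and were judged by direction alone. Of the steps, 246 values kept direction and threshold side, 2 newly passed, 3 no longer passed and 19 changed sign. DESeq2 called GATA6 in DSY-c2 (−2.75, adjusted p = 0.0485) and late against early ICM (−1.37, adjusted p = 0.0372), and the difference between lines for HNF4A (5.30, adjusted p = 0.00181) and PDGFRA (4.73, adjusted p = 0.00827). A filter of 1 CPM called the latter for HNF4A (5.30, adjusted p = 0.0413) and PDGFRA (4.74, adjusted p = 0.0431), as did fitting only the groups compared (5.22, adjusted p = 0.00517, and 4.65, adjusted p = 0.0410), which also called PDGFRA in N40 (1.32, adjusted p = 0.0284). One fit of all 39 libraries lost HNF4A in the epiblast (−1.23, adjusted p = 0.110). From morula to early ICM GATA6 was −0.0417 with DESeq2 and with its size factors, and HNF4A was 0.0168 with a replicate block. HNF4A with NANOG gave an r of 0.0650 after stage means were subtracted, and GATA6 with NANOG 0.0291 without the 2 farthest libraries. The cause of these changes was not tested.

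With 1 library left out at a time, GATA6 stayed called in N40 (8.07 to 9.17), between lines (8.67 to 12.02) and in epiblast against ICM (−3.55 to −3.10), as did HNF4A in N40 (8.25 to 8.76). Calls varied for PDGFRA in DSY-c2 (−3.84 to −0.84), HNF4A in DSY-c2 (2.80 to 4.46), HNF4A in epiblast against ICM (−1.40 to −1.02), PDGFRA there (−1.23 to −0.88), GATA6 in epiblast against hatched ICM (−3.33 to −2.11), and between lines for PDGFRA (2.17 to 5.21) and HNF4A (4.002 to 5.66). The adjusted p of the 4 primed groups ran from 0.00229 to 0.0648 for GATA6, 0.000657 to 0.0587 for HNF4A and 0.0281 to 0.319 for PDGFRA. Uncalled steps that changed sign were, for GATA6, early ICM against morula (−0.56 to 0.48), expanded against blastocyst (−0.70 to 0.59) and hatched against hatching (−0.37 to 1.18), for HNF4A early against morula (−0.29 to 0.33), blastocyst against early (−0.20 to 0.49) and hatching against expanded (−0.86 to 0.15), and for PDGFRA blastocyst against early (−0.18 to 0.98), expanded against blastocyst (−0.71 to 0.40) and hatched against hatching (−0.26 to 1.05).

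A replicate block changed no call of the 3 genes: in N40 it gave GATA6 8.69 (adjusted p = 0.00432), HNF4A 8.57 (adjusted p = 0.000543) and PDGFRA 1.35 (adjusted p = 0.346). Same-numbered libraries correlated at −0.0926 to −0.0288 over 3 N40 pairs and −0.172 to 0.125 over 63 embryo pairs. For DSY-c2 alone, no paired analysis was possible because its primed and naive libraries share a single number.

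Genes called over the ICM stages numbered 50, but 93 with no filter, 88 with 1 CPM, 1150 with DESeq2, 139 with halved counts, 79 with the first run column, 5 with only these groups, 5234 in the joint fit and 11 with the block. For late against early ICM the 345 became 1756 with DESeq2, 4 with only these groups, 3093 in the joint fit and 225 with the block. For early ICM against morula the 1042 became 2758, 213 and 4439 in the first 3 of these, and for blastocyst against early ICM the 5 became 1089, 0 and 1733, with 9 halved, 8 from the first run and 3 with the block. The later steps, at 0, had 48, 26 and 259 in the joint fit, and 1 for the last with the block. Epiblast against hatched ICM had 3372, then 5231 with only these groups and 7183 jointly. The joint fit gave 1748 for 10565 in DSY-c2, 2371 for 10952 in N40, 12 for 2716 between lines and 513 for 6847 among primed groups. Leaving out 1 library gave 12 to 171 over the ICM stages, 117 to 586 late against early, 4 to 127 blastocyst against early, 513 to 949 early against morula and 1975 to 2884 epiblast against hatched. At 2 to 18 counts per library, GATA6 and HNF4A in N40 primed cells had a large counting error.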

Other observations

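Genes of the trophectoderm, the outer layer of the blastocyst, were mixed in naive cells. Of the 8 tested, 4 rose and 4 fell in N40, and 2 rose and 3 fell in DSY-c2, with or without primed replicate 4 (edgeR, adjusted p under 0.05). Over all genes 61% were called in N40 and 58.8% in DSY-c2, so the DSY-c2 count is near that share. GATA2, a GATA factor of trophoblast and blood, reached 8.05 ± 5.12 CPM in N40 and 40.6 ± 32.5 CPM in DSY-c2 naive cells (SD, n = 3 each). CDX2, a homeobox factor of trophectoderm, was called higher in both lines, but at only 0.395 ± 0.123 and 1.10 ± 0.363 CPM, and it was at 0 in all N40 primed libraries.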
